A study of Mus musculus with 42 samples.

Results

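The member bins described here are the 100-kb bins of the mouse autosomes that lay in a lamina-associated domain (LAD) in most but not all liver libraries. Chromosomes 1 to 19 of mm10 were tiled from their first base in bins of 100 kb, and a bin counted as in a LAD of a library when LADs covered 50 kb or more of it. Bins in a LAD in 9 to 13 of the 14 libraries were taken, 3160 of 24639 autosomal bins (12.8%). Another 1499 bins were in a LAD in all 14 libraries, 4310 in 1 to 8 libraries and 15670 in none. The choice used the LAD calls of all 14 libraries, so which libraries miss the member bins is a description. The tests given below take the calls of left-out libraries, on bins chosen with the other libraries. A library with few LADs in total can still score low on such bins, so these tests do not separate member bins from total LAD coverage.

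Lamin B1 (LMNB1) was mapped by ChIP-seq in livers of wild-type C57Bl/6 mice, with 1 library per mouse and 2 mice per time point. Non-synchronized (NS) mice were sacrificed on the day before food was withdrawn, and all other mice were fasted for 24 h and then had free access to chow from circadian time CT0. They were sacrificed at CT0, CT6, CT12, CT18, CT24 or CT30, so the CT groups share the fast. Some fields of the labels call these mice female and others male, and the paper's methods describe them as male. Each library is a piece of whole liver, so hepatocytes and other liver cells were not separated. Only start and end positions of LADs were available, without scores or reads. The read depth behind a call is therefore unknown, and the error given here is the spread between 2 mice. On the autosomes and sex chromosomes together a library held 335.3 to 663.0 Mb of LADs.

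The nuclear lamina is a protein meshwork of lamins beneath the inner nuclear membrane, and LMNB1 is one of its B-type lamins. LADs are long stretches of chromatin in contact with it. They are generally poor in active genes, rich in A and T and replicated late, and many differ between cell types while others are shared. LAD callers such as EDD join neighbouring bins of enriched signal into domains, with a bin size and a gap penalty estimated from each data set.

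Member bins missed by 1 library numbered 1044 (33.0% of members), and 619, 502, 468 and 527 were missed by 2, 3, 4 and 5 libraries. Just outside the limits lay 401 bins in a LAD in 8 libraries and the 1499 bins in a LAD in all 14. Median GC content was 38.0% in bins of 9 libraries and 38.4% in bins of 8. Bins of 9 libraries held 5.28 protein-coding genes per Mb and bins of 8 held 3.44, while bins of 13 held 4.05 and bins of all 14 held 1.18. Olfactory receptor genes made up 66.5% of genes in bins of 9 libraries and 26.1% in bins of 8. They made up 48.5% in bins of 13 and 3.95% in bins of 14. Of 278 genes in bins of 9, 185 were olfactory receptor genes, against 36 of 138 in bins of 8. The step at the lower limit thus came from these genes, and other genes per Mb were not more in bins of 9. Gene content also varied inside the limits. Bins of 10 libraries held 18.97% olfactory receptor genes, and bins of 11 held 2.57 genes per Mb. Bins of all 14 held the fewest genes per Mb. Members held 3.99 protein-coding genes per Mb, against 11 in the bins of none.

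The promoters of 5 genes in member bins are printed to show how different the sequences inside these bins are. Rorb encodes the nuclear receptor RORβ and is the only clock gene of 20 listed that starts in a member bin. That is 5%, near the 6.06% of all autosomal protein-coding genes that start in one. Pcdh9 encodes a protocadherin, Klhl1 a kelch-like protein of the nervous system and Dach1 a transcriptional cofactor of the dachshund family. All 3 lie in the longest run of member bins. Olfr154 was added after the values were seen, as the first olfactory receptor gene in chromosome order whose RefSeq and GENCODE starts are within 100 bp. Each sequence runs 5′ to 3′ from 250 bases before to 50 after the RefSeq start on GRCm38.p6, and capitals mark CpG dinucleotides.
Rorb, chr19:19111147-19111446, minus strand: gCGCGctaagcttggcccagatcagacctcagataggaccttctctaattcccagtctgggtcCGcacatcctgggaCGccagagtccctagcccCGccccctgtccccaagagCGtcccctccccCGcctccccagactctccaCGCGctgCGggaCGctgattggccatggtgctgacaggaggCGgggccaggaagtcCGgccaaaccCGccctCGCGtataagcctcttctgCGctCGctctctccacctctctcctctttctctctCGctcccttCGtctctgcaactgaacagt
Pcdh9, chr14:93890630-93890929, minus strand: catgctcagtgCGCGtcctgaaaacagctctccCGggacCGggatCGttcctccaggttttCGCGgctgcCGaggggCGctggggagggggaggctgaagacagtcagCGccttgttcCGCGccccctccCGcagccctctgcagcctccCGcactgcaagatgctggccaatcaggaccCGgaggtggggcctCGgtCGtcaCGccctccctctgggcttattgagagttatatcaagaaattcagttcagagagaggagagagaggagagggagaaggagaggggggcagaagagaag
Klhl1, chr14:96518985-96519284, minus strand: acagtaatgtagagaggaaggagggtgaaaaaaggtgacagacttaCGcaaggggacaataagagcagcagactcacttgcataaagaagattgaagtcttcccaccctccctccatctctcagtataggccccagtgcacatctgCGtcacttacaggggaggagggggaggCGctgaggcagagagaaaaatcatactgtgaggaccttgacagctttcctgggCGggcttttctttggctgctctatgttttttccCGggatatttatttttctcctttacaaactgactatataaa
Dach1, chr14:98169716-98170015, minus strand: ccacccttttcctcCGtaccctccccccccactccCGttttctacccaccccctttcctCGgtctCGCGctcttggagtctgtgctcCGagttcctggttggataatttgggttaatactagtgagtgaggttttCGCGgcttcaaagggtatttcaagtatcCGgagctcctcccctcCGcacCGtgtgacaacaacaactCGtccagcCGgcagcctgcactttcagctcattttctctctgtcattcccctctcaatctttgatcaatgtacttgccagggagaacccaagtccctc
Olfr154, chr2:85664406-85664705, minus strand: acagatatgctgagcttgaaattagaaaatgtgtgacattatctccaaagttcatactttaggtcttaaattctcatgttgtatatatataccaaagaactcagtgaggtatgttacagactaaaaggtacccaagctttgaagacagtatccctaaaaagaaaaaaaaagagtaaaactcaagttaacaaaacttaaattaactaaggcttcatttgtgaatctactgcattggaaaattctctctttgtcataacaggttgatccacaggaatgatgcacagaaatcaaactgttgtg

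Rorb held 20 CpGs in the 300 bases and was in a LAD in 12 libraries. Pcdh9 held 18 and was in a LAD in 11, Dach1 13 and in 9, and Klhl1 5 and in 11. Olfr154 held 0 CpGs and was in a LAD in 9 libraries. The RefSeq start of Klhl1 lay 68 bp from the GENCODE start, and the other 4 starts coincided. CpG-rich and CpG-free promoters thus both occurred among the members.

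Which libraries missed the member bins was uneven. The 14 libraries left 8295 pairs of a member bin and a library outside LADs, and 6501 of these (78.4%) came from 5 libraries. NS replicate 1 missed 1958 member bins (62.0%) and NS replicate 2 missed 292 (9.24%). At CT0 replicate 1 missed 1364 (43.2%) and replicate 2 missed 182 (5.76%). At CT6 they missed 610 (19.3%) and 194 (6.14%). In these 3 groups the replicates stood far apart.

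At CT12 the replicates missed 242 (7.66%) and 88 (2.78%) member bins, and at CT18 they missed 176 (5.57%) and 72 (2.28%). At CT24 the numbers were 201 (6.36%) and 347 (10.98%). At CT30 the replicates missed 1427 (45.2%) and 1142 (36.1%). Replicate 1 missed more than replicate 2 in 6 of the 7 groups, all but CT24. CT30 was thus the time point at which both mice missed many member bins, whereas at NS and CT0 only replicate 1 did, and no mouse of CT12, CT18 or CT24 missed more than 10.98%.

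These numbers stand against the share of all autosomal bins that each library had in a LAD. NS had 13.5% and 21.1% in replicates 1 and 2, CT0 17.2% and 23.3%, CT6 20.1% and 23.3%, and CT12 22.3% and 23.6%. CT18 had 25.1% and 26.5%, CT24 25.6% and 21%, and CT30 16.1% and 15.7%. The 5 libraries with the fewest bins in LADs were also the 5 that missed the most member bins.

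A missed bin was mostly outside LADs altogether. In 7883 of the 8295 pairs (95.0%) the bin had 0 bp of LAD in that library, and 97.6% of the pairs in a LAD were covered in full. Few calls were therefore near the 50 kb limit.

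Most missed bins belonged to LADs that were missed whole. Runs of consecutive bins in a LAD in 9 or more libraries were taken as domains, 184 in all. A missed bin was classed as whole-domain when the library had no LAD bin in the domain, as edge when the missed bins ran without a break to a domain end, and as internal when the library had LAD bins on both sides. Of the 8295 pairs 5347 (64.5%) were whole-domain, 2723 (32.8%) edge and 225 (2.71%) internal.

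The 5 libraries that missed the most differed from the other 9 in the shape of what they missed. In NS replicate 1 87.0% of the missed member bins were whole-domain, in CT0 replicate 1 82.4%, in CT6 replicate 1 75.4% and in the CT30 replicates 62.0% and 62.7%. Over these 5 libraries 75.2% of the missed bins were whole-domain. In the other 9 libraries 1181 of 1794 missed bins (65.8%) were edge and 459 (25.6%) whole-domain. CT24 replicate 1 was the exception among those 9, with 59.7% whole-domain. Internal gaps were few and came mainly from NS replicate 2 (65 bins), CT30 replicate 1 (42), CT6 replicate 2 (41) and CT12 replicate 1 (34).

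**Figure D1:**
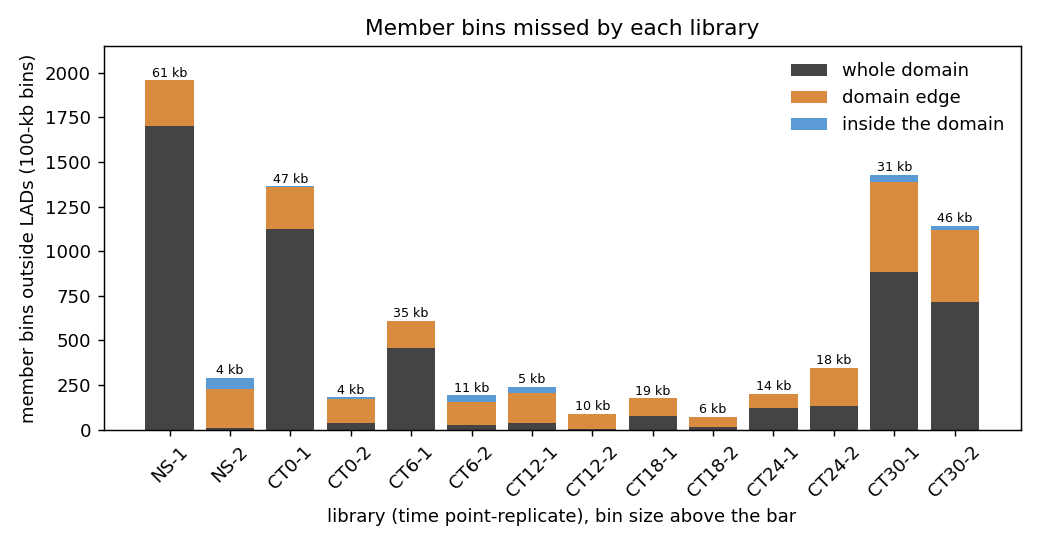
Member bins outside LADs in each of the 14 libraries, stacked by whether the whole domain, a domain edge or the inside of the domain was missed; the y axis counts 100-kb bins and the number above a bar is the bin size of the library in kb. NS replicate 1 stands highest with 1958 bins, and 5 libraries make up 78.4% of the total.

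The same division appears by domain. Of the 184 domains 136 held no bin in all 14 libraries, and these contained 2438 member bins (77.2%). The other 48 domains had such a core, with 684 member bins (21.6%) on its flanks and 38 (1.20%) between parts of it. Domains without a core were shorter, with a median of 1.4 Mb against 4.35 Mb, although the longest reached 10.1 Mb. All but 1 of the 136 domains were missed whole by at least 1 library.

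NS replicate 1 missed 104 of the 184 domains whole, CT0 replicate 1 missed 82, CT30 replicates 1 and 2 missed 72 and 68, and CT6 replicate 1 missed 47. The other 9 libraries missed between 1 (NS replicate 2, CT0 replicate 2, both CT12 mice and CT18 replicate 2) and 16 (CT24 replicate 2). Flanks of cores numbered 95, with a median width of 0.5 Mb and a maximum of 4.9 Mb. Member bins formed 235 runs with a median of 0.9 Mb, and 81.2% of them lay in runs of 1 Mb or more.

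To ask whether time points differ, member bins were chosen again for each library without it, as bins in a LAD in 9 to 12 of the other 13 libraries, and the share of them in a LAD of the left-out library was taken. This held-out share was 42.5% and 89.9% in the NS mice, 57.8% and 93.7% at CT0, and 80.6% and 93.2% at CT6. At CT12 the mice had 91.3% and 96.8%, at CT18 94.2% and 97.3%, at CT24 92.6% and 88.2%, and at CT30 57.5% and 63.9%. The mean of NS was 66.2% ± 33.5, that of CT0 75.7% ± 25.4 and that of CT6 86.9% ± 8.95 (SD, n = 2). CT12 had a mean of 94.0% ± 3.89, CT18 of 95.8% ± 2.23, CT24 of 90.4% ± 3.09 and CT30 of 60.7% ± 4.56. Both CT30 mice were below every mouse of CT6 to CT24, whereas CT0 replicate 1 overlapped with them.

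Across the 6 CTs the differences in held-out share did not pass the test against the spread between mice (F = 2.79, exact permutation p = 0.189 over the 10395 ways to divide 12 libraries into 6 pairs). F was 20.0 without CT0 replicate 2 and 11.6 without CT0 replicate 1. Either way CT0 was left with 1 mouse, which adds nothing to the spread, so these values draw no conclusion about a time point. NS minus CT0 was -9.55 percentage points in the mean (exact permutation p = 0.667, two-sided). The smallest p that 2 against 2 allows is 0.333. The sign turned to 16.3 points higher without NS replicate 1 and 6.38 points higher without CT0 replicate 2.

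**Figure D2:**
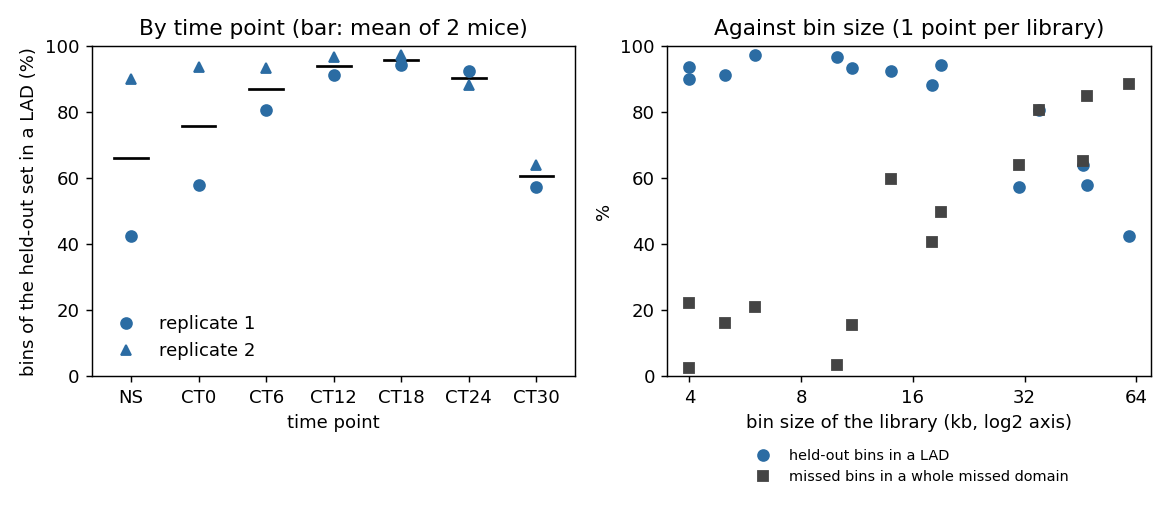
Left, the share of held-out member bins in a LAD (%) for each mouse by time point, with a bar at the mean of 2 mice. Right, the same share and the share of missed bins that were whole-domain, both with the library left out of the choice, against the bin size of the library in kb on a log2 axis. The 5 libraries with a bin size over 30 kb lie between 42.5% and 80.6% in held-out share and the other 9 between 88.2% and 97.3%.

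The bin size of the LAD calls moved with these values. It was read from the spacing, in kb, that the LAD starts of a library on whole kb have in common. It was 31 to 61 kb in the 5 libraries that missed the most member bins and 4 to 19 kb in the other 9. Total LAD coverage divided them in the same way, with 335.3 to 495.2 Mb in the 5 and 526.5 to 663.0 Mb in the 9. Bin size and total coverage can therefore not be told apart between these groups, and which of them the shares follow was not tested. Over the 14 libraries the held-out share fell with log2 bin size (Pearson r = -0.80, adjusted permutation p = 0.000627; Spearman rho = -0.71, adjusted permutation p = 0.00799, Benjamini-Hochberg over 4 relations). The share of missed bins that were whole-domain, again with each library left out of the choice, rose with it (r = 0.90, adjusted permutation p = 0.00016; rho = 0.89, adjusted permutation p = 0.00014). The edge share fell (r = -0.88, adjusted permutation p = 0.00028; rho = -0.90, adjusted permutation p = 8e-05), and the internal share did not pass the test (r = -0.50, adjusted permutation p = 0.0694; rho = -0.32, adjusted permutation p = 0.256).

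The 2 libraries farthest from the median bin size on the log2 scale were NS replicate 2 and CT0 replicate 2, both at 4 kb. Without them r was -0.85 for the held-out share, 0.90 for the whole-domain share and -0.87 for the edge share. The 5 libraries of larger bin size all stayed in. Within the 9 libraries with a bin size under 20 kb r was -0.065 for the held-out share (exact permutation p = 0.865), 0.68 for the whole-domain share (exact permutation p = 0.0506) and -0.59 for the edge share (exact permutation p = 0.0962). The relation of the held-out share thus rests on the 5 libraries of larger bin size. They are NS replicate 1, CT0 replicate 1, CT6 replicate 1 and both CT30 mice, so at CT30 bin size and time point cannot be told apart. Of the 3160 member bins 2044 (64.7%) were in a LAD in all 9 libraries with a bin size under 20 kb.

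Whether mice of a time point missed the same bins was tested on left-out libraries. The labels list 1 input per time point. If both mice were called against it, a shared control and a shared time point cannot be told apart in replicate pairs. For each pair of libraries, bins were chosen with the other 12 (in a LAD in 8 to 11 of them), and agreement was the phi coefficient of LAD state, a correlation of yes and no calls. The NS mice had a phi of 0.00107, the CT0 mice 0.132, the CT6 mice 0.295, the CT12 mice 0.301, the CT18 mice 0.0902, the CT24 mice 0.272 and the CT30 mice 0.477. CT30 was the highest of the 7 and NS the lowest. Replicate pairs averaged 0.224 over 7 pairs and all other pairs 0.141 over 84 pairs (difference 0.0829, exact one-sided permutation test over 135135 divisions, p = 0.0878). This difference from all other pairs did not pass the test. It was 0.122 without NS replicate 1, 0.138 without NS replicate 2, 0.111 without CT0 replicate 2 and 0.113 without CT18 replicate 2. Each omission also removes a replicate pair, here those of the lowest phi (NS, CT18 and CT0), so these values draw no conclusion. Without CT30 replicate 1 the difference was 0.0346, and without both CT30 mice 0.0449 (exact one-sided permutation p = 0.213).

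A library carries the number 1, 2 or 3 in its deposited name, and 0 of the 7 replicate pairs share a number. Pairs from different time points with the same number had a mean phi of 0.194 (28 pairs), and those with different numbers 0.115 (56 pairs). Against the latter alone the replicate pairs differed by 0.109 (exact one-sided permutation test over 10800 divisions, p = 0.0276), an alternative chosen after seeing the data. The pairs among the 3 libraries numbered 3 (NS replicate 2, CT0 replicate 2 and CT12 replicate 1) had phi of 0.374, 0.551 and 0.611. These libraries also had the smallest bin sizes, 4, 4 and 5 kb. All libraries with a bin size over 30 kb but CT30 replicate 2 are numbered 1. Number and bin size thus go together in part and cannot be told apart here. What the number stands for was not tested.

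Bins missed by both mice of a time point were most numerous at CT30. Both CT30 mice missed 749 member bins (23.7%), while the NS mice shared 131, the CT0 mice 100, the CT6 mice 70, the CT24 mice 42, the CT12 mice 31 and the CT18 mice 9. Among all 8969 bins in a LAD in at least 1 library, both mice had no LAD in 46.9% at CT30, 33.8% at NS, 26.6% at CT0, 29.2% at CT6, 24.7% at CT24, 29.1% at CT12 and 15.9% at CT18. CT30 was thus the highest for members and for that background alike. Of the 749 bins, 131 (17.5%) were in a LAD in NS replicate 1, CT0 replicate 1 and CT6 replicate 1, the other libraries with a bin size over 30 kb, and 146 were missed by all 3. Only 68 were missed by no other library.

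Missing sets were varied. The member bins had 353 distinct sets of missing libraries. NS replicate 1 alone was missing for 454 bins, CT30 replicate 1 alone for 219, NS replicate 1 with CT0 replicate 1 for 181 and CT0 replicate 1 alone for 153. All 5 libraries of larger bin size together, and no other, were missing for 146.

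Regions that make up the longest runs show how whole domains drop out. The longest, chr14:88500001-98600000, is 10.1 Mb of member bins with 4 protein-coding genes, Pcdh9, 4921530L21Rik, Klhl1 and Dach1. LADs covered 0 Mb of it in NS replicate 1, 2.95 Mb in CT30 replicate 1 and 2.62 Mb in CT30 replicate 2. In the other 11 libraries 8.62 to 10.1 Mb was covered. Both CT30 mice missed 70 of its 101 bins. The CpG counts printed above for Pcdh9, Klhl1 and Dach1 belong to this region, whose GC content was 36.3%.

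On chromosome 12, chr12:59600001-68700000 (9.1 Mb) begins with Lrfn5, which encodes a synaptic adhesion protein, and also holds Fancm, a DNA repair helicase, and Prpf39, a splicing factor, among 12 genes. It was covered over 2.71 Mb in CT30 replicate 1, 3.28 Mb in CT0 replicate 1 and 4.88 Mb in NS replicate 1, and over 8.67 to 9.10 Mb in the other 11. No library missed it whole. It shows partial loss in 3 of the 5 libraries of larger bin size, and in CT30 only 1 of the mice.

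The region chr4:22600001-31300000 (8.7 Mb) holds 9 genes, among them Mms22l, a DNA repair factor, Gpr63, a G-protein-coupled receptor, and Fut9, a fucosyltransferase. CT30 replicate 1 had 0 Mb and CT30 replicate 2 had 6.76 Mb, whereas NS replicate 1 covered it in full. On chromosome 13, chr13:82200001-89300000 (7.1 Mb) holds Mef2c, a transcription factor of muscle and neurons, Rasa1, a RAS GTPase-activating protein, Ccnh, Cox7c, Tmem161b and Edil3. NS replicate 1 had 0 Mb there, and the other 13 libraries 5.36 to 7.10 Mb. The library that lost a region whole was thus not the same in these examples.

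On chromosome 12, chr12:92300001-97400000 (5.1 Mb) has 1 gene, Flrt2, which encodes an adhesion protein of axon guidance. It had 0 Mb in NS replicate 1, CT0 replicate 1 and CT30 replicate 1, 1.73 Mb in CT24 replicate 2 and 3.24 Mb in CT6 replicate 2. Here CT30 replicate 2 covered 5.08 Mb, so the CT30 mice were at opposite ends.

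Both CT30 mice missed chr10:112200001-114700000 (2.5 Mb), with Kcnc2, a voltage-gated potassium channel gene, and Atxn7l3b. Both CT30 mice had 0 Mb. The other 12 libraries had 1.71 to 2.50 Mb, among them NS replicate 1 (2.40 Mb), CT0 replicate 1 (1.71 Mb) and CT6 replicate 1 (2.46 Mb), whose bin sizes were also over 30 kb. The CT30 mice did not overlap with any other library here. The region was chosen for bins missed by both mice of a time point, so no test was made.

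A different set of libraries missed chr14:3300001-7100000, 3.8 Mb with 81 genes, 79 of them predicted genes named Gm with a number. Both CT0 mice, CT12 replicate 1 and CT24 replicate 1 had 0 Mb, NS replicate 2 had 2.88 Mb and the other 9 libraries 3.80 Mb. Soft-masked repeats made up 61.9% of the sequence against a median of 42.4% over member bins, and its GC content was 42.4%. How well reads can be placed in such repeats was not measured here, and its part in these calls was not tested. Of the 4 libraries that missed it, CT0 replicate 1 alone had a bin size over 30 kb.

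Rorb lies in chr19:18900001-20300000 (1.4 Mb), of which CT18 replicate 1 and CT30 replicate 1 had 0 Mb and the other 12 libraries 1.13 to 1.40 Mb. Neither the second CT18 mouse nor the second CT30 mouse missed it.

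**Figure D3:**
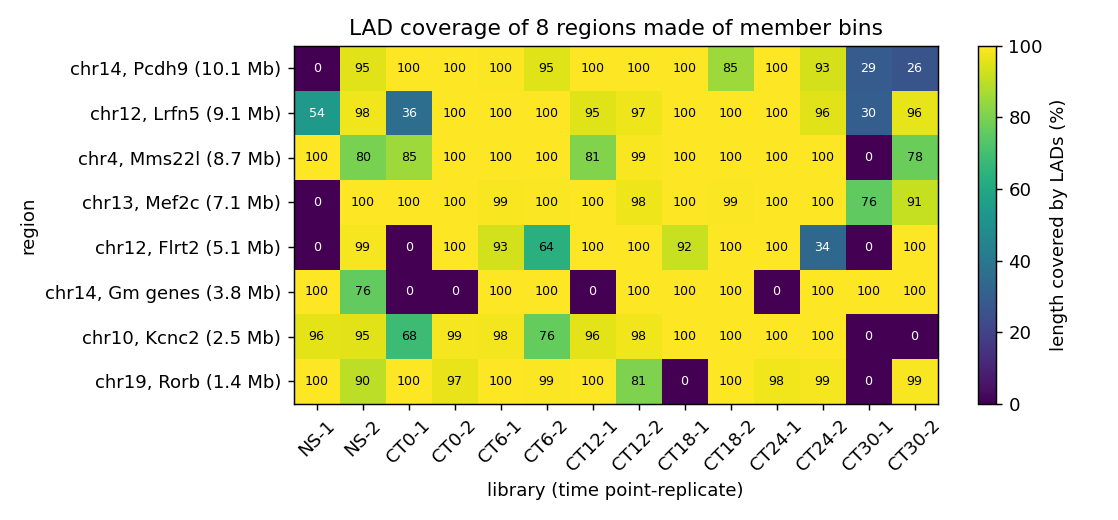
Percent of the length of 8 regions of member bins covered by LADs in each library (columns, time point-replicate; rows, chromosome, a gene of the region and length in Mb). The chromosome 10 region with Kcnc2 is at 0 in both CT30 mice only, and the chromosome 14 region of Gm genes is at 0 in both CT0 mice, CT12 replicate 1 and CT24 replicate 1.

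Genes in the member bins came largely from clustered receptor families. Of 20807 autosomal protein-coding genes 1260 (6.06%) had their transcription start in a member bin, and 83.0% of member bins held no start. Olfactory receptor genes (Olfr), which encode the odorant receptors of the nose, made up 597 of them (47.4%). These 597 are 52.9% of the 1128 Olfr genes, and 7 Olfr genes lay in bins of all 14 libraries. Without Olfr genes the members held 2.10 genes per Mb against 1.13 in bins of all 14, 4.34 in bins of 1 to 8 libraries and 10.8 in bins of none.

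By chromosome the member bins held more genes per Mb than the bins of all 14 libraries on 16 of 19 chromosomes, and on 14 of 19 without Olfr genes. Neighbouring bins share domains, so these classes are described and not tested. Member bins were most frequent on chromosome 4 (18.6% of its bins) and least on chromosome 15 (4.23%), where 14.6% of bins were in a LAD in all 14 libraries.

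Olfr genes of member bins sat in 146 bins of 11 domains on 6 chromosomes. NS replicate 1 had 565 of the 597 (94.6%) outside LADs, CT30 replicate 1 345 (57.8%), CT30 replicate 2 214 (35.8%), CT6 replicate 1 212 (35.5%) and CT0 replicate 1 181 (30.3%). Of all 1260 member genes these libraries had 70.4%, 40.6%, 31.1%, 23.9% and 50.6% outside LADs, in the same order. The Olfr share was thus below that of all member genes in CT0 replicate 1 and above it in the others. In the other 9 libraries 0 to 46 Olfr genes were outside. On chromosome 2, 253 of 294 Olfr genes were in member bins and all 253 were outside LADs in NS replicate 1, but 0 in CT0 replicate 1. On chromosome 9 members held 120 of 132 Olfr genes, 120 missed by NS replicate 1 and 105 by CT30 replicate 1. The cluster on chromosome 10 (40 of 70 Olfr genes) was missed by all 5 libraries of larger bin size and by no other. On chromosome 17 all 32 Olfr genes of member bins were outside LADs in CT30 replicate 2 and 0 in CT30 replicate 1.

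Other chemosensory families were also found here. Type 1 vomeronasal receptors (Vmn1r), the pheromone receptors of the vomeronasal organ, had 75 of 208 genes in member bins, and 63 of the 75 were outside LADs in CT0 replicate 1 against 1 in NS replicate 1. Type 2 receptors (Vmn2r) had 30 of 119, with 21 outside LADs in each of NS replicate 1 and CT0 replicate 1. Bitter taste receptors (Tas2r) had 22 of 35, all on chromosome 6. NS replicate 1 and CT0 replicate 1 had all 22 outside LADs, CT18 replicate 2 had 4 and every other library 0. Reads from closely related copies may be shared among such genes, and the effect on these calls was not tested.

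Immune gene clusters were outside LADs as a whole in some libraries. Over all 1260 member genes 70.4% were outside LADs in NS replicate 1, 50.6% in CT0 replicate 1, and 40.6% and 31.1% in the CT30 replicates. Defensins, antimicrobial peptides, had 23 of 64 genes in member bins, 21 of them α-defensins (Defa) on chromosome 8. All 23 were outside LADs in NS replicate 1 and CT0 replicate 1. Killer cell lectin-like receptors, which natural killer cells carry, had 10 of 26, Klra1 to Klra10 on chromosome 6, and all 10 were outside LADs in NS replicate 1, CT0 replicate 1 and both CT30 mice. Together with the 3 chemosensory families and Olfr, these families held 757 of the 1260 genes (60.1%).

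**Figure D4:**
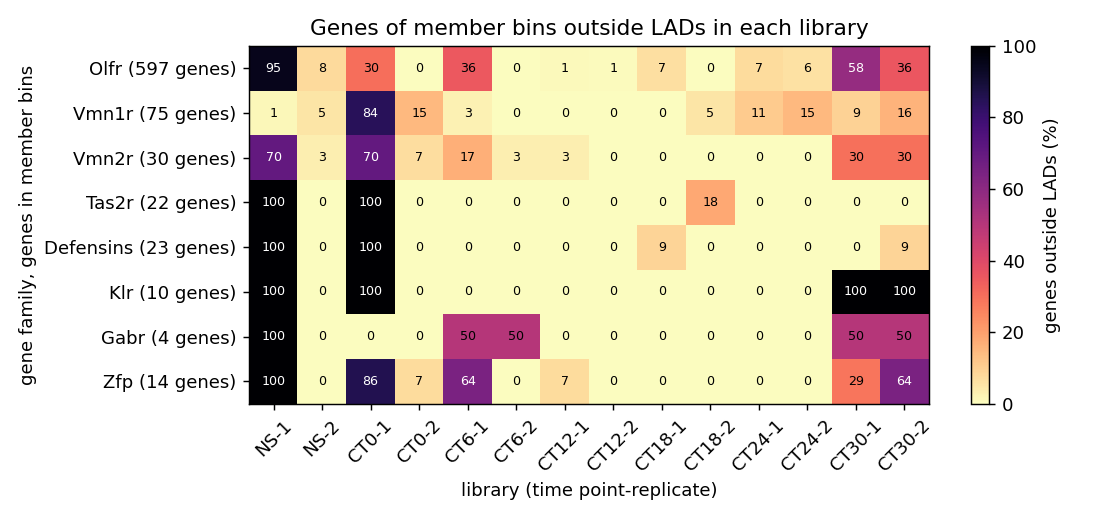
Percent of the genes of 8 families in member bins that lay outside LADs in each library (columns, time point-replicate; rows, family with its number of genes in member bins). Tas2r and defensin genes are at 100 in NS replicate 1 and CT0 replicate 1, and Olfr genes are at 94.6% in NS replicate 1.

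Among genes of neurons, 4 of 16 GABA receptor subunit genes were in member bins, all on chromosome 5. Gabrg1 and Gabra2 were missed by NS replicate 1 alone. Gabrb1 and Gabra4, which lie next to them, were missed by NS replicate 1, both CT6 mice and both CT30 mice. The boundary between what 1 and 5 libraries missed thus ran through this cluster. Glutamate receptor genes had 3 of 26 members. Grm3 and Gria4 were missed by NS replicate 1 alone, and Grm5 by the 5 libraries of larger bin size.

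Of all autosomal protein-coding genes 6.06% started in a member bin. Several lists below lie near that share, and a short list can hold 0 genes at it. Potassium channel genes had 6 of 92 in member bins (Kcnj3, Kcna4, Kcnd2, Kcnc2, Kcnv1 and Kcnh8). Contactins and their partners had 3 of 13 (Cntnap5b, Cntn3 and Cntnap5c). Cadherins had 1 of 23 (Cdh11) and calcium channel genes 1 of 25 (Cacna2d1). Leucine-rich repeat proteins had 2 of 75 (Lrrc7 and Lrrtm1), solute carriers 4 of 372 (Slco4c1, Slco6c1, Slco6d1 and Slc5a7), ADAM proteases 3 of 33 (Adam26b, Adam26a and Adam34), interleukins and their receptors 1 of 77 (Il5ra) and ribosomal proteins and kinases 1 of 92 (Rpl10l). Zinc finger genes named Zfp had 14 of 385, all 14 outside LADs in NS replicate 1, which had 70.4% of all member genes outside. All 61 listed genes of secreted and metabolic liver proteins were in bins with no LAD in any library. So were 17225 of all 20807 autosomal protein-coding genes. The lists of cytochromes P450 (100 genes), glucuronosyl- and sulfotransferases (43), sodium channels (14), keratins and keratin-associated proteins (113), serpins (60), chemokines (35), interferon α (16), Hox genes (39), histones (67) and desmosomal cadherins (9) had 0 genes in member bins.

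**Figure D5:**
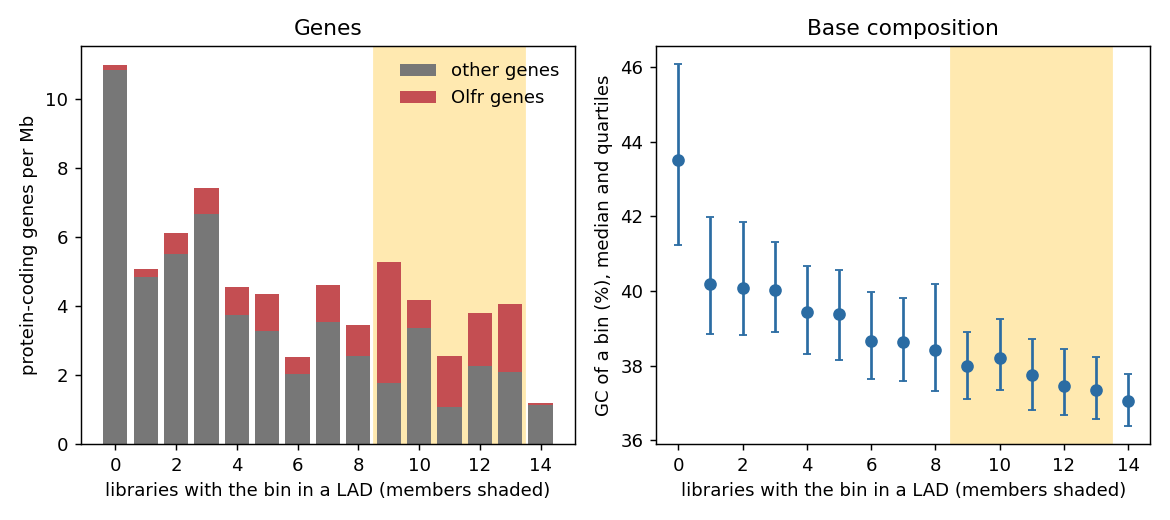
Left, protein-coding genes per Mb, Olfr genes and others stacked, by the number of libraries with the bin in a LAD. Right, median GC content of a bin in percent with quartiles; member bins (9 to 13 libraries) are shaded, and their median over all 3160 bins is 37.7% against 37.1% in bins of all 14.

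In base composition the member bins lay between the bins of all 14 libraries and the others. Median GC content was 37.7% in members, 37.1% in bins of all 14, 39.6% in bins of 1 to 8 libraries and 43.5% in bins of none. On 18 of 19 chromosomes the members' median was above that of the bins of all 14, and on all 19 it was below that of the bins of none. CpG density was 5.08 per kb against 4.79, 6.20 and 9.83. Soft-masked repeats took up 42.4% of members, 42.8% of bins of all 14, 36.1% and 28.2%.

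RefSeq promoters of 300 bases matched 15687 genes by symbol, 940 of them with the gene start in a member bin. The member promoters held a median of 1 CpG, and the 138 promoters in bins of all 14 libraries a median of 2, against 15 over all promoters. Without Olfr genes the median of members was 3, and 25.7% of those promoters held 10 or more CpGs. The letters TATAAA, on either strand, were in 39.8% of member promoters, in 51.8% of the 485 Olfr promoters among them, in 27.0% of the other 455, in 23.2% of those in bins of all 14 libraries and in 12.9% of all. CACGTG, the same on both strands, was in 2.87% of member promoters, 6.52% of those in bins of all 14 and 8.10% of all. AGGTCA on either strand was in 10.7% of Olfr and 16.3% of other member promoters against 14.05% of all, so the members lay on both sides of it. GAGAGAGA on either strand was in 2.02% of member promoters against 3.27% of all. The 4 strings were counted separately, and matches that overlap were allowed. Of the printed promoters Klhl1 held TATAAA, and Rorb and Pcdh9 held GAGAGAGA on either strand. These letters were not found in the windows of Dach1 and Olfr154, and CACGTG and AGGTCA were in none of the 5.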

How the data were processed

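Each library is LMNB1 ChIP-seq of the liver of 1 mouse. The deposited files list the chromosome, start and end of each LAD on mm10, in base pairs, and hold no score, signal or count. Before deposit the authors had mapped reads with Bowtie 2.25.0 (named Bowtie2 in the submitters' processing notes), removed duplicates with Picard, down-sampled ChIP and input reads to a common depth by chromosome and called LADs with EDD in each mouse, with the gap penalty and bin size averaged over repeated runs. The version of EDD is not given in the sources used here. Depth per library is unknown, so no interval for counting error is given. The inputs and RNA-seq were not analysed here.

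Bins, domains, shapes and gene counts were computed in Python 3.11.15 with NumPy 2.4.6, SciPy 1.17.1 and pandas 2.3.3, and figures were drawn with matplotlib 3.10.9. Gene starts came from GENCODE vM21 and sequence from GRCm38.p6, the build of mm10, and 0 of 2845 LADs ended beyond a chromosome. Features of sequence were taken over the 23987 bins with at least 50 kb of known bases. Of the LAD starts 82 lay off whole kb and were set aside for the bin size. Groups came from the labels. Single values were compared with exact permutation tests over samples, and relations over 14 libraries with 100000 resamples, two-sided; the scripts were tested on simulated data. P values of the tests between time points measure the spread between mice. Those of the relations shuffle values over libraries whatever their time point, and those of agreement compare divisions of the libraries into pairs. For the relations of the shapes the shares with each library left out are printed, since the rule used the calls of all 14.

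Regions named were the 5 longest runs of member bins, the 5 domains without a core with the most member bins, the 3 with the most bins missed by both mice of a time point, and the domain of Rorb. From them up to 8 genes in chromosome order could be named, and up to 6 from each gene list with its count. Some regions met more than 1 of these criteria, which left 8. Klra genes are named as a range and Olfr154 was added later. Some genes that the rule would name are not reported here. Member bins, lists and tests were chosen with earlier results of these data known. Alternatives changed the coverage limit, the grid, the bin length, the LADs and libraries used, the limits on libraries, the measure of agreement and the replicate block.

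Replicate numbers of the labels were checked for pairing. Over the 21 pairs of time points, the deviations of replicate 1 from the mean of its time point, in kb covered per member bin, correlated between -0.335 and 0.276, and 2 of the 21 were over 0.1. The 2 were NS with CT0 (0.276) and CT0 with CT6 (0.148), whose replicate 1 libraries carry number 1 in the deposited names. The lowest were NS with CT12 (-0.335) and CT0 with CT12 (-0.155), whose replicate 1 libraries carry 1 and 3. All other pairs lay between -0.0896 and 0.0983. With signs both ways, the replicate numbers of the labels were taken only as names. The check does not exclude a structure by the deposited numbers. The numbers 1 to 3 in the deposited names are others, and a block on them was added after seeing the data.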

Additional observations from a re-analysis of the deposited data

Results flagged for a closer look

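The bins were confined to chromosomes 1 to 19, and LADs outside them were not used. On the Y chromosome 3 libraries held 13 LADs, with at most 20.1 Mb covered in a library. On the X chromosome 10 libraries held 68 LADs, with at most 10.3 Mb covered in a library.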

How the results depend on the processing

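The number of member bins stayed within 1.5 times of 3160 in all 21 alternatives (2614 to 2959 with a library left out). The edge, internal and whole-domain shares moved by less than the SD between replicates in all 22. Those SDs were wide, 27.0 percentage points (edge), 9.01 (internal) and 33.5 (whole-domain), so this limit could hardly be failed. With a library left out the edge share was 30.7 to 37.1%, the internal share 1.93 to 3.44% and the whole-domain share 59.5 to 66.8%, and members held 3.62 to 4.22 genes per Mb. The lowest, 3.62 without CT6 replicate 2 and 3.64 without CT24 replicate 2, moved by more than their SD between replicates (0.318).

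With a library left out F across CTs was 1.34 to 20.0. The difference of NS from CT0 was -32.2 to 16.3 points, reversed without NS replicate 1 (16.3) and CT0 replicate 2 (6.38). The agreement difference was 0.0346 (without CT30 replicate 1) to 0.138 (without NS replicate 2). A mouse left alone in its group then adds nothing to the spread, and its replicate pair drops out of the agreement. The agreement difference passed the threshold among pairs of different numbers (0.109), chosen after seeing the data. With the replicate block F was 3.74 (exact permutation p = 0.117) and NS minus CT0 stayed at -9.55 points (exact permutation p = 0.5); the block changed no call. With the number in the deposited names as a block, added after seeing the data, F was 3.59 (exact permutation p = 0.171). For NS and CT0 that block is the same, since both have numbers 1 and 3.

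With each library left out of the choice, relations that no longer passed by Pearson's r were, within the 9 libraries under 20 kb, the held-out share (r = -0.065), the edge share (-0.59), the internal share (-0.39) and the whole-domain share (0.68), and the internal share over all 14 (-0.50) and without the 2 farthest (-0.44). By Spearman's rho the held-out share also failed within replicate 1 (-0.75, exact permutation p = 0.0663), within replicate 2 (-0.58, exact permutation p = 0.187) and within libraries numbered 1 (-0.77, exact permutation p = 0.103). Shapes of members chosen with all 14 libraries are descriptions, so their r is given without a test. Under 20 kb it was -0.51 (edge), -0.50 (internal) and 0.66 (whole-domain), and within replicate 2 -0.72 (edge) and -0.38 (internal). The internal share had -0.45 without the 2 farthest, -0.16 within libraries numbered 1 and -0.48 on a kb scale. The left-out choice and the subsets under 20 kb and numbered 1 were added after seeing the data, and the causes were not tested. Unknown depth limits all calls.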
